A study of Mus musculus with 15 samples.

Results

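Cultured mouse podocytes that lack Col4a3 (Col4a3-/-) were treated for 24 h with CYM50358, a compound that blocks S1PR4. The 6 libraries described here were chosen by their labels: 3 from knockout podocytes given CYM50358 and 3 from knockout podocytes given vehicle, out of 15 in the series. Both groups carry the same gene knockout, so the comparison asks which transcripts differ between CYM50358 and vehicle in cells of this genotype. The other 9 libraries were 3 from knockout cells given apolipoprotein M (ApoM), 3 from wild-type cells given vehicle and 3 from a separate set of vehicle-treated knockout cells deposited in one table with the wild type. Whether the replicates were separate cultures, and from how many animals or clones the cells derive, is not stated in the labels. The p-values below therefore measure the spread between these libraries, which may be technical.

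Podocytes are the epithelial cells that wrap the capillaries of the kidney filter. With the endothelium they make its basement membrane, whose main network is built of the collagen IV chains encoded by Col4a3, Col4a4 and Col4a5, and loss of such a chain causes Alport syndrome. S1PR4 is a G protein-coupled receptor for the lipid mediator sphingosine-1-phosphate and is best known from lymphocytes and other blood cells. Several of the genes described below belong to lipid circuits with known regulators. PPAR nuclear receptors, which bind fatty acids, switch on genes of fatty acid burning. SREBP transcription factors, released when membranes run low in sterol, switch on cholesterol and fatty acid synthesis, and LXR receptors, which bind oxysterols, switch on cholesterol export. TFEB and related factors switch on lysosomal genes.

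Depth was 57735687 to 62201989 reads in the vehicle libraries and 60455130 to 83166742 in the CYM50358 libraries, and 13877 genes were tested. Col4a3 itself, which both groups are labelled as lacking, had a signal of 24.4, 18.4 and 16.6 in vehicle and 13.5, 17.4 and 15.8 in CYM50358 libraries, and in the separate genotype libraries 1085 ± 168 in wild-type and 68.3 ± 11.7 in knockout cells. The deleted region is not named in the labels, and reads from outside it would check nothing. The podocyte label was checked against 10 markers: Nphs1 (nephrin) and Ptpro stood at or near 0, and Wt1, a podocyte transcription factor, had a signal of 2.33 to 4.89. Synpo (synaptopodin) at 287 to 346 and Cd2ap at 108 to 120 were well expressed. The markers summed to 1000 to 1064 in vehicle and 904 to 917 in CYM50358 libraries. They did not move one way. Nes was lower with CYM50358 (548 to 636 in vehicle and 423 to 436) by more than the sums were. Synpo was higher (287 to 319 and 325 to 346). Of the 7 tested podocyte markers 4 had a higher and 3 a lower mean. Of 10 endothelial markers 2 reached the minimum signal, and of 10 leukocyte markers 3, with Adgre1 and Cd3e at 0 in all 6 libraries. Markers of mesangial cells and fibroblasts summed to 7115 to 8401 in vehicle and 6364 to 6896 in CYM50358 libraries, nearly all of it Acta2, and parietal and tubular markers to 729.6 to 796.8 and 707 to 742. In bulk RNA, fewer cells of a type and less RNA per cell cannot be told apart. The share of reads from mitochondrial DNA was 2.60% to 3.18% in vehicle and 3.30% to 3.46% in CYM50358 libraries, without overlap, and the part of this in the results was not tested.

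CYM50358 changed 359 of the 13877 tested genes (2.59%), 186 upward (1.34%) and 173 downward (1.25%), with limma on log2(signal + 1) and a Benjamini-Hochberg adjusted p under 0.05. The largest change was a loss of Angptl4, a secreted inhibitor of lipoprotein lipase, and several genes of fatty acid burning fell with it. Among the genes that rose were members of cholesterol synthesis, fatty acid desaturation, the lysosome and metal binding. Most changes were small: the median size over called genes was 0.36 on the log2 scale, 83 genes changed by at least 0.5, and 9 (0.0649%) by at least 2-fold, 4 of them upward. In 20.9% of tested genes every library of one group lay above every library of the other, and 2307 genes had an unadjusted p under 0.05. On reads recovered from the deposited values, edgeR's quasi-likelihood test called 264 genes (1.9%), 148 upward (1.07%) and 116 downward (0.836%), 262 of them among the 359. At the same threshold the authors' deposited table calls 958 genes, 463 higher and 495 lower, and these include 353 of the 359, all in the same direction. The number of calls depended on single libraries. It was 78 without CYM50358 replicate 2, 168 without CYM50358 replicate 3 or vehicle replicate 2, 179 without vehicle replicate 1, 234 without vehicle replicate 3 and 474 without CYM50358 replicate 1. In all 6 of these fits 68 genes were called. With no minimum signal, which brought the many near-empty rows of the table into the test, 1 gene was called, Angptl4.

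**Figure D1:**
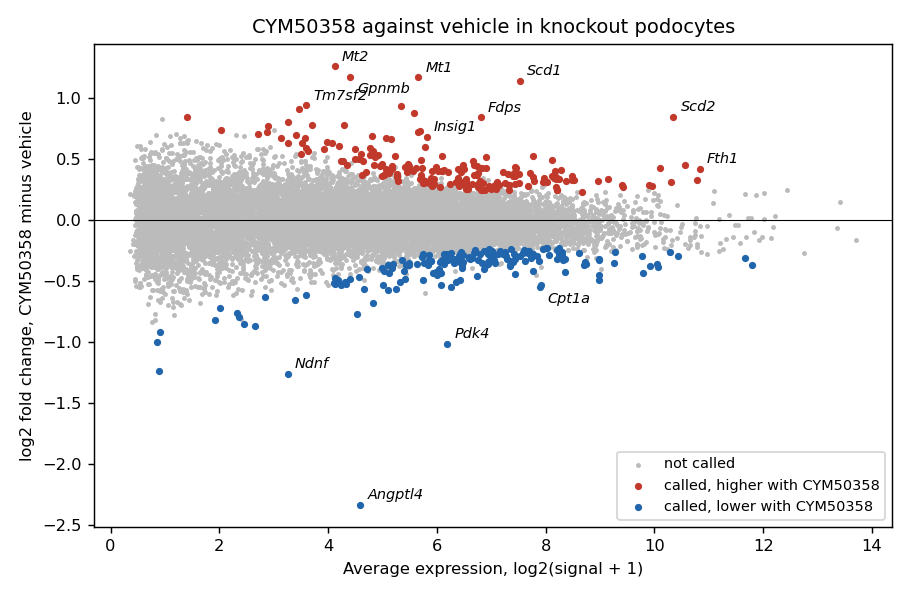
Each point is one of the 13877 tested genes, with its average log2(signal + 1) over the 6 libraries on the x axis and the log2 fold change of CYM50358 minus vehicle on the y axis. Genes with a limma adjusted p under 0.05 are red (186, higher) or blue (173, lower). Angptl4 lies apart from all others at -2.33.

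The receptor that CYM50358 targets was scarcely transcribed in these cells. S1pr4 had 0 reads in each of the 3 vehicle libraries, where a count of 0 still allows 0.048 to 0.053 by counting error, and 0, 1 and 21 reads in the CYM50358 libraries. S1pr5 was also too low to be tested. S1pr2, the receptor gene with the highest signal, was 38.8, 37.8 and 41.6 in the vehicle libraries and 30.3, 31.1 and 25.5 after CYM50358. The groups did not overlap, and S1pr2 fell (log2 fold change -0.43, SE 0.09, adjusted p = 0.019), a call lost without CYM50358 replicate 3 (0.070), vehicle replicate 1 (0.053) or vehicle replicate 3 (0.068). S1pr3 was 13.1, 13.99 and 17.8 and 10.6, 10.1 and 9.81, also without overlap, but did not pass with limma (adjusted p = 0.053), and reached 0.049 with edgeR. S1pr1 stood near the minimum signal in both groups (1.05 ± 0.448 and 0.852 ± 0.177). None of 12 tested genes that make, export or break down sphingosine-1-phosphate passed, among them the exporter Spns2 (310.1 ± 10.2 and 331 ± 7.86), the lyase Sgpl1 (297 ± 12.3 and 282 ± 11.4) and the kinase Sphk1 (4.28 ± 0.584 and 3.98 ± 0.459). Of 18 genes of receptor feedback and 27 of MAP kinase feedback and immediate early response, none passed with limma or edgeR. With DESeq2, which called 763 of the 13877 tested genes, 3 of the 27 fell.

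Angptl4 and several genes of fatty acid burning in mitochondria fell. Angptl4, which acts outside the cell on lipoprotein lipase (ENSMUSG00000002289.17, chr17:33992724-34000804, mm39), had a signal of 55.3, 48.6 and 56.4 in the vehicle libraries and 10.1, 8.98 and 10.3 after CYM50358. The lowest vehicle library stood at more than 4 times the highest treated one. The group means were 53.4 ± 4.19 and 9.78 ± 0.697, the largest change among all tested genes (log2 fold change -2.33, SE 0.10, adjusted p = 6.2e-11), and the call held in all 6 fits with a library left out (adjusted p at most 8.1e-09). Pdk4, a kinase that shuts pyruvate dehydrogenase and so spares glucose when fat is burned, was 92.4, 90.8 and 130.4 in vehicle and 50.1, 59.7 and 43.1 in CYM50358 libraries (log2 fold change -1.01, SE 0.12, adjusted p = 8.8e-05). Cpt1a, the carnitine transferase that admits long-chain fatty acids to mitochondria, was 284, 280 and 299 and 195, 193 and 201. Both groups were tight and far apart (log2 fold change -0.55, SE 0.06, adjusted p = 3.1e-05). Ucp2, an uncoupling protein of the inner mitochondrial membrane, fell from 69.8 ± 2.85 to 51.4 ± 3.67 (log2 fold change -0.43, SE 0.08, adjusted p = 0.0043). These 4 genes held with each library left out.

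In the list of fatty acid oxidation 6 of 29 tested genes fell and none rose, against 1.25% of all genes falling. The list's median was -0.11, beside -0.0017 over all tested genes. Besides Angptl4, Pdk4, Cpt1a and Ucp2 these were Slc25a20, the carrier that brings acylcarnitine into the matrix (36.97 ± 1.51 to 27.5 ± 2.77, log2 fold change -0.42), and Acaa2, a thiolase of the last step of the spiral (50.3 ± 4.52 to 38.6 ± 2.59, -0.37). Slc25a20 lost its call without CYM50358 replicate 1 (0.061), CYM50358 replicate 2 (0.090), vehicle replicate 1 (0.086) or vehicle replicate 2 (0.092), and Acaa2 without CYM50358 replicate 2 (0.15), vehicle replicate 1 (0.073) or vehicle replicate 2 (0.14). Enzymes of the steps in between did not pass: the acyl-CoA dehydrogenase Acadm was 54.4 ± 4.95 and 59.3 ± 3.41, the trifunctional protein subunit Hadha 144 ± 6.66 and 139.8 ± 2.33, and Cpt2, the partner of Cpt1a, 51.3 ± 3.61 and 50.9 ± 4.57.

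A further list of 46 textbook PPAR target genes was drawn up after the values were seen, and it overlaps the oxidation list. Of its 32 tested members 8 fell and none rose (25%, against 1.25% of all tested genes falling; median -0.12). Among those outside the oxidation list was Acot2, a mitochondrial acyl-CoA thioesterase. Acot2 fell from 23.03 ± 1.995 to 15.7 ± 1.7 (-0.52), a call lost without CYM50358 replicate 1 (0.052), CYM50358 replicate 2 (0.089), vehicle replicate 1 (0.089) or vehicle replicate 2 (0.091). The number of members that fell was 4 without vehicle replicate 2 and 5 without vehicle replicate 1 or CYM50358 replicate 2. Other listed targets did not pass, among them the lipid droplet coat gene Plin2 (371 ± 32.6 and 313 ± 16.9, adjusted p = 0.068). Of the receptors, Ppard was 47.4 ± 2.3 and 54.2 ± 2.66 and Pparg 0.747 ± 0.764 and 0.814 ± 0.36, neither past the threshold, and Ppara was under the minimum signal.

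**Figure D2:**
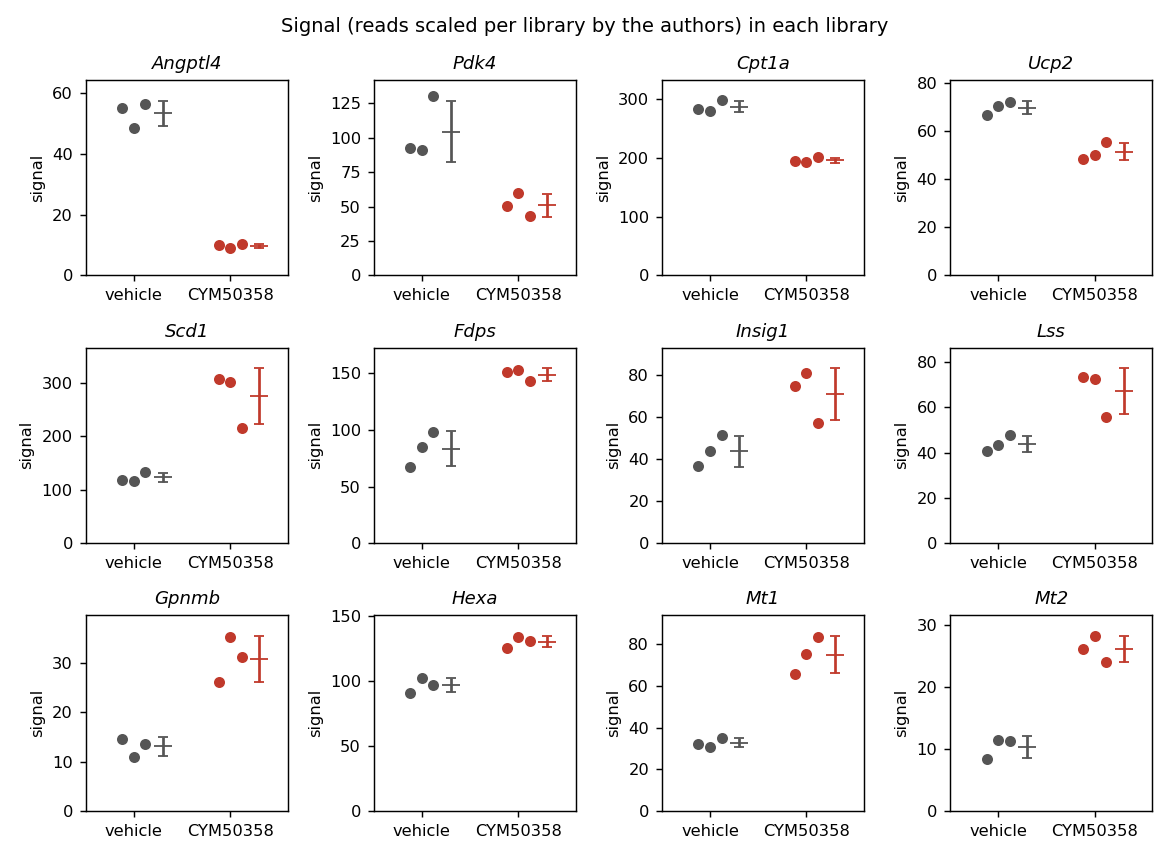
Signal (reads scaled per library by the authors, linear axes from 0) of 12 genes in the 3 vehicle libraries (grey) and the 3 CYM50358 libraries (red), with the mean and SD beside each group. The top row holds Angptl4 and genes of fatty acid burning, all lower with CYM50358, and the other rows genes of lipid synthesis, the lysosome and metal binding, all higher. In no panel do the groups overlap, which was a condition for naming several of these genes and holds for 20.9% of all tested genes.

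Cholesterol synthesis rose along most of its length. The list of cholesterol synthesis and uptake has 26 tested members, of which 16 rose and none fell (61.5% called, against 1.34% of all genes rising), and all 26 had a higher mean with CYM50358 (median log2 fold change 0.43). Fdps, which makes farnesyl diphosphate, had a signal of 67.6, 84.9 and 98.2 in vehicle and 151, 153 and 143 in CYM50358 libraries. The treated libraries were close together and all above the highest vehicle library (log2 fold change 0.84, SE 0.09, adjusted p = 5.1e-05). Tm7sf2, a sterol reductase, rose from a low level (7.42, 6.35 and 9.75 against 16.4, 16.03 and 14.8; log2 fold change 0.94, SE 0.15, adjusted p = 0.0021). Lss, which closes the sterol ring, was 40.8, 43.3 and 47.8 and 73.3, 72.6 and 55.7, with CYM50358 replicate 3 below the other treated libraries (log2 fold change 0.59, SE 0.10, adjusted p = 0.0027).

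Near the entry to the pathway Hmgcs1, the synthase that makes HMG-CoA, rose from 182 ± 17.9 to 262 ± 29.4 (log2 fold change 0.52, SE 0.08, adjusted p = 0.0021). Mvd, Nsdhl, Cyp51 and Acat2, enzymes of later and earlier steps, rose by 0.59, 0.67, 0.48 and 0.52 on the log2 scale. These 4, with Fdps, Tm7sf2, Lss and Hmgcs1, were called with every library left out. The other 8 lost their calls without CYM50358 replicate 2, so that 8 of the 26 then rose. Among them were Mvk, Pmvk, Fdft1, Sqle, Msmo1 and Insig1, at adjusted p-values of 0.053 (Insig1) to 0.15 (Pmvk) without that library. Of those named, Sqle, Pmvk and Msmo1 also lost their calls without vehicle replicate 1 or vehicle replicate 2, and Sqle without CYM50358 replicate 1 (0.087). The number that rose was 11 without vehicle replicate 1 or 2 and 14 without CYM50358 replicate 1. It was 16 without CYM50358 replicate 3 and 17 without vehicle replicate 3. Insig1, which holds SREBP in the endoplasmic reticulum and is itself an SREBP target, was 36.5, 43.7 and 51.2 and 74.6, 80.7 and 57.1, with the groups apart (log2 fold change 0.68, SE 0.12, adjusted p = 0.0040). Srebf2, the gene of the sterol-controlled SREBP, did not pass (192, 202 and 215 and 245, 237 and 207, adjusted p = 0.20).

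Hmgcs1 is a textbook target of SREBP, whose element holds the core TCACNCCAC. The 120 bases below lie 193 to 74 bases before its RefSeq start (chr13:119690158-119690277, plus strand, GRCm38.p6), with the match in capitals, and are shown because it is the member of the list with this core.
Hmgcs1: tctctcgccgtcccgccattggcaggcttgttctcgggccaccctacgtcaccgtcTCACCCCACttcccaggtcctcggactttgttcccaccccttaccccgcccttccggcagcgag
In the 250 bases before the start, searched on both strands, this was the single match among the 18 tested members of the cholesterol list with a sequence in the table, and 1.26% of tested genes with a sequence hold one. Elements with other letters or positions were not searched.

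Fatty acid desaturation rose with sterol synthesis. Scd1, the stearoyl-CoA desaturase that makes oleate (ENSMUSG00000037071.4, chr19:44382894-44396318, mm39), had a signal of 118, 117 and 133 in vehicle and 308, 302 and 215 in CYM50358 libraries. Each treated library stood above each vehicle library, with CYM50358 replicate 3 the lowest of them (log2 fold change 1.14, SE 0.10, adjusted p = 3.2e-06). Its neighbour Scd2, which was more highly expressed, was 1033, 992 and 895 and 1900, 1840 and 1518 (log2 fold change 0.84, SE 0.08, adjusted p = 1.7e-05). Srebf1, the gene of the SREBP that drives fatty acid synthesis, rose from 86.6 ± 2.88 to 119 ± 4.93 (log2 fold change 0.45, SE 0.06, adjusted p = 0.00094). These 3 held with each library left out. The desaturases Fads1 (0.33) and Fads2 (0.31) of polyunsaturated fatty acids and the acyl-CoA synthetase Acsl3 (0.54) also rose, and lost their calls without CYM50358 replicate 2 (0.078, 0.15 and 0.099), Fads2 also without CYM50358 replicate 3 (0.071) or vehicle replicate 3 (0.051). In all 6 of 16 tested genes of the list rose and none fell (37.5%, against 1.34% of all tested genes rising, median 0.23). Without CYM50358 replicate 2, 3 rose. The synthase Fasn, which builds the chains, did not pass (359.7 ± 9.3 and 362 ± 33.3, adjusted p = 0.98).

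Of 10 tested LXR targets and genes of cholesterol export 3 rose (30%, against 1.34% of all tested genes rising) and none fell. They were Mylip, a ubiquitin ligase of cholesterol uptake (38.01 ± 1.97 to 51.2 ± 3.75), the phospholipid transfer protein Pltp (223 ± 19.7 to 283 ± 18.6) and Lpcat3 (86.5 ± 4.94 to 103 ± 3.22). The exporters Abca1 (195 ± 28.2 and 229 ± 7.82) and Abcg1 (4.9 ± 0.864 and 6.69 ± 0.479) did not pass. The count was 0 without CYM50358 replicate 2 and 1 without CYM50358 replicate 3 or vehicle replicate 2 or 3, and Lpcat3 was not called once trends with transcript length and GC were removed from each library (adjusted p = 0.10).

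Many lysosomal genes rose, in small steps. Of 39 tested hydrolases and their activators 12 rose and none fell (30.8% called, against 1.34% of all tested genes rising, median 0.21). A higher mean was seen for 35 of the 39. Hexa, a subunit of the hexosaminidase that breaks down gangliosides, was 91.1, 102 and 96.9 in vehicle and 126, 134 and 131 in CYM50358 libraries. The groups stood apart, with each at a narrow spread (log2 fold change 0.42, SE 0.07, adjusted p = 0.0019). Grn, which encodes progranulin, rose from 270.2 ± 13.95 to 359 ± 13.5 (log2 fold change 0.41, SE 0.06, adjusted p = 0.0016) and the protective protein gene Ctsa from 149 ± 7.27 to 194 ± 7.91 (log2 fold change 0.38, SE 0.06, adjusted p = 0.0027). These 3 were called with every library left out. The cathepsins Ctsb, Ctsd and Ctsl, the sphingolipid activator Psap, the glucosidase Gaa, and Naglu and Tpp1 rose by 0.28 to 0.44 on the log2 scale. They lost their calls without CYM50358 replicate 2, with adjusted p-values of 0.053 (Gaa) to 0.14 (Psap). Besides 3 without that library, 7 genes rose without CYM50358 replicate 3 or vehicle replicate 1.

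Among 43 tested genes of the lysosome membrane, its proton pump and autophagy, 17 rose and none fell. That is 39.5% called, against 1.34% of all tested genes rising, and the median was 0.19. Gpnmb, a membrane glycoprotein known to rise in cells with loaded lysosomes, showed the largest change, with 14.7, 11.01 and 13.7 in vehicle and 26.1, 35.3 and 31.2 in CYM50358 libraries (log2 fold change 1.17, SE 0.13, adjusted p = 3.2e-05). Atp6v0d1, a subunit of the proton pump, rose from 149 ± 2.6 to 191 ± 11.1 (log2 fold change 0.36, SE 0.06, adjusted p = 0.0044), and the autophagosome genes Gabarap from 325 ± 8.82 to 408 ± 8.49 and Map1lc3a from 44.8 ± 3.95 to 60.4 ± 1.47. These 4 held with each library left out. Sqstm1, the cargo receptor p62, rose from 946 ± 58.6 to 1273 ± 143 (log2 fold change 0.42, SE 0.08, adjusted p = 0.0078), and Mcoln1, the calcium channel of the lysosome, from 41.2 ± 2.85 to 55.7 ± 4.58 (log2 fold change 0.43, SE 0.08, adjusted p = 0.0096). Sqstm1 lost its call without CYM50358 replicate 2 (0.089) and Mcoln1 without CYM50358 replicate 2 (0.096) or vehicle replicate 2 (0.057). The number that rose was 4 without CYM50358 replicate 2, 10 without CYM50358 replicate 3 or vehicle replicate 1 or 2, and 11 without vehicle replicate 3. The genes of the regulators themselves did not pass: Tfeb was 9.65 ± 2.08 and 11.7 ± 0.536, Tfe3 54.9 ± 1.27 and 55.4 ± 2.27, and Mitf 4.59 ± 0.329 and 3.77 ± 0.417.

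TFEB is known to bind an E-box, CACGTG, within a longer element, although many other factors bind the same 6 letters. In the 250 bases before the start (both strands, GRCm38.p6), 11 of the 30 tested hydrolase genes with a RefSeq sequence hold at least 1 match. Among tested genes the share is 10.04% and among all 32851 promoters 6.02%. Of the 9 called hydrolase genes with a sequence 5 hold it, namely Ctsa, Ctsd, Ctsl, Gaa and Naglu. In the list of the membrane, pump and autophagy, searched after the values were seen, 5 of 36 do. The stretches below show the match in capitals for genes that rose: Gaa (197 to 78 bases before the start, chr11:119267766-119267885, plus strand), Naglu (130 to 11, chr11:101069964-101070083, plus strand) and Mcoln1 (120 to 1, chr8:3500399-3500518, plus strand), which has a pair of matches.
Gaa: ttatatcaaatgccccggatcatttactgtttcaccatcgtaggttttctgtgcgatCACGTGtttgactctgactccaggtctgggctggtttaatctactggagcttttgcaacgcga
Naglu: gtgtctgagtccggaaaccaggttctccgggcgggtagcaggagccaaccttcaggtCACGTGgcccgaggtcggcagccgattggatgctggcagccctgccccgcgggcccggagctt
Mcoln1: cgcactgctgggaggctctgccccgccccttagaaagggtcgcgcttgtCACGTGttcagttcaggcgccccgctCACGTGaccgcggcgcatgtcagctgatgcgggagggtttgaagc
A match is a run of letters and not a measured binding site.

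A few genes of metal binding and transport rose. Mt1 (ENSMUSG00000031765.9, chr8:94905710-94906955, mm39) and Mt2, neighbouring genes of the metallothioneins that bind zinc and copper, were at 32.1, 30.9 and 35.1 and 8.3, 11.5 and 11.3 in the vehicle libraries. After CYM50358 they were at 65.8, 75.5 and 83.6 and 26.1, 28.1 and 23.9. All treated libraries lay above all vehicle libraries (Mt1, log2 fold change 1.17, SE 0.09, adjusted p = 4.7e-07, and Mt2, log2 fold change 1.26, SE 0.13, adjusted p = 2.1e-05). Steap3, a ferrireductase of iron uptake, rose from 14.1 ± 1.36 to 24.8 ± 0.821 (log2 fold change 0.78, SE 0.11, adjusted p = 0.00087), and the subunits of the iron store ferritin rose too, Fth1 from 1574 ± 97.8 to 2103 ± 95.6 (0.42) and Ftl1 from 1298 ± 69.6 to 1779 ± 189 (0.45). Ferritin genes have many near-identical pseudogenes, so their counts are uncertain. Of 22 tested genes of metal binding and transport these 5 rose and none fell (22.7%, against 1.34% of all tested genes rising, median -0.01). Without CYM50358 replicate 2, Fth1 and Ftl1 were lost (0.067 each) and 3 rose, and without CYM50358 replicate 1 the 5 rose and 3 other members fell. Slc30a1, the zinc exporter whose gene answers to zinc in many cells, did not pass (16.3, 18.04 and 17.02 and 18.9, 16.7 and 14.9), nor did the transferrin receptor gene Tfrc (48.1 ± 1.55 and 38.1 ± 7.25).

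The factor MTF1 is known to turn on metallothionein genes in response to zinc through elements with the core TGCNCNC. The 250 bases before the start of Mt2 (chr8:94172368-94172617, plus strand, GRCm38.p6) hold 5 matches on the 2 strands, in capitals.
Mt2: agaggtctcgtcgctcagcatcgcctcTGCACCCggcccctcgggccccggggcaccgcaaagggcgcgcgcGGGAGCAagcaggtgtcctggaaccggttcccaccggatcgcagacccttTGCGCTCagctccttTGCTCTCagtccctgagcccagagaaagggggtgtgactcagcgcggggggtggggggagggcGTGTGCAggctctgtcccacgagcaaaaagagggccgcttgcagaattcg
Among the other members that rose, Mt1 held 1 match, Steap3 2 at the start with the most, and Fth1 and Ftl1 0. The core is short and common. At least 1 match is found before 57.5% of tested genes and 9 of the 16 tested genes of the list with a sequence, while 1.28% of all promoters hold 4 or more.

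Of 35 tested NRF2 targets and glutathione genes 2 rose and none fell (5.71%, against 1.34% of all tested genes rising), with 31 of the means higher (median 0.16). Hmox1, which breaks down heme, was 97.5, 104 and 94.5 and 129, 149 and 148 (log2 fold change 0.52, SE 0.07, adjusted p = 0.00048). It held with each library left out. Nqo1, a quinone reductase, rose from 15.04 ± 1.65 to 21.4 ± 2.21 (0.48), lost without CYM50358 replicate 1 (0.076), CYM50358 replicate 2 (0.18), vehicle replicate 1 (0.099) or vehicle replicate 2 (0.15). The glutathione-making enzymes Gclc (0.17) and Gclm (0.08) did not pass.

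The integrated stress response, a program of amino acid shortage and unfolded protein that ATF4 drives, did not move one way. Of 49 tested genes 2 rose (4.08%, against 1.34% of all tested genes) and 4 fell (8.16%, against 1.25%), with a median of -0.01. Only 1 fell without CYM50358 replicate 2, and 2 without CYM50358 replicate 1 or vehicle replicate 2. Psat1, an enzyme of serine synthesis, was 90.7, 94.1 and 91.8 in vehicle and 63.1, 64.7 and 60.5 in CYM50358 libraries, far apart at a small spread (log2 fold change -0.55, SE 0.07, adjusted p = 0.00015). The arginine transporter gene Slc7a1 fell from 175 ± 1.81 to 140.1 ± 6.18 (log2 fold change -0.32, SE 0.06, adjusted p = 0.0075, lost without CYM50358 replicate 2 (0.054)). Phgdh, the enzyme before Psat1 in serine synthesis, and Aldh1l2, of mitochondrial folate metabolism, changed by -0.25 and -0.57, with adjusted p-values of 0.034 and 0.047. Phgdh lost its call without CYM50358 replicate 1 (0.063), CYM50358 replicate 2 (0.13), CYM50358 replicate 3 (0.068), vehicle replicate 2 (0.16) or vehicle replicate 3 (0.051), and Aldh1l2 without CYM50358 replicate 1 (0.10), CYM50358 replicate 2 (0.053), CYM50358 replicate 3 (0.15), vehicle replicate 1 (0.17) or vehicle replicate 2 (0.21). Ddit3, the stress factor CHOP, rose instead, from 22.04, 23.1 and 21.5 to 28.6, 37.8 and 34.2 (log2 fold change 0.56, SE 0.10, adjusted p = 0.0062, lost without CYM50358 replicate 2 (0.075)), as did Cebpb, a partner of CHOP (9.14 ± 1.83 to 16.2 ± 1.71, log2 fold change 0.77, SE 0.15, adjusted p = 0.0078). Atf4 itself did not pass (196 ± 15.6 and 214 ± 7.59). Of 35 tested chaperones and XBP1 targets of the endoplasmic reticulum 2 fell (5.71%, against 1.25% of all tested genes falling). They were Hsp90b1 (-0.30) and Pdia6 (-0.28), and 29 of the 35 means were lower. Hsp90b1 lost its call without CYM50358 replicate 2 (0.16), CYM50358 replicate 3 (0.081) or vehicle replicate 2 (0.14), and Pdia6 without CYM50358 replicate 2 (0.10) or vehicle replicate 2 (0.088). Of 21 heat shock genes none passed with limma or edgeR, and 1 rose with DESeq2.

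Among 29 tested NF-kB targets and chemokines 2 rose and 2 fell (6.90% each, against 1.34% and 1.25% of all tested genes). Cxcl10, a chemokine that interferon also induces, was 33.9, 30.4 and 41.7 and 21.6, 24.8 and 18.5 (log2 fold change -0.68, SE 0.12, adjusted p = 0.0045), and held with each library left out. Its signal after ApoM was 24.95, 21.3 and 27.5. Tnfaip3, a brake on NF-kB, fell by -0.34, and Cxcl12 and Ptx3 rose by 0.27 and 0.40. Tnfaip3 was lost without CYM50358 replicate 1 (0.051), CYM50358 replicate 2 (0.067) or vehicle replicate 3 (0.078), Cxcl12 without CYM50358 replicate 1 (0.10), CYM50358 replicate 2 (0.12), CYM50358 replicate 3 (0.098), vehicle replicate 2 (0.088) or vehicle replicate 3 (0.13), and Ptx3 without CYM50358 replicate 1 (0.15), CYM50358 replicate 2 (0.070), vehicle replicate 1 (0.053), vehicle replicate 2 (0.16) or vehicle replicate 3 (0.13). Of 34 tested interferon genes 3 rose (8.82%, against 1.34%) and none fell, all of the Ifit family: Ifit3 at 40.9, 38.7 and 38.4 and 54.7, 67.5 and 76.8 (log2 fold change 0.73, SE 0.10, adjusted p = 0.00048), Ifit3b (0.64, lost without CYM50358 replicate 2 (0.10), CYM50358 replicate 3 (0.070) or vehicle replicate 3 (0.051)) and Ifit2 (0.30, lost without CYM50358 replicate 2 (0.16), CYM50358 replicate 3 (0.18), vehicle replicate 1 (0.093), vehicle replicate 2 (0.16) or vehicle replicate 3 (0.10)). Ifit3 and Ifit3b are close copies, so the split of reads between them is uncertain. The list's median was 0.02.

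Some genes of the basement membrane, the cytoskeleton and adhesion fell, and most of these calls were lost when 1 library was left out. Col4a5 (ENSMUSG00000031274.17, chrX:140258381-140472230, mm39), the collagen IV chain that pairs with the missing one, was 1196, 1169 and 952 in vehicle and 926, 824 and 797 in CYM50358 libraries. Vehicle replicate 3 was close to the highest treated library (log2 fold change -0.38, SE 0.08, adjusted p = 0.022), and the call was lost without CYM50358 replicate 2 (0.14), CYM50358 replicate 3 (0.089), vehicle replicate 1 (0.081) or vehicle replicate 2 (0.10). Col4a4 (276, 273 and 177 and 193, 189.5 and 200) and the reads that remain of the targeted Col4a3 (24.4, 18.4 and 16.6 and 13.5, 17.4 and 15.8) overlapped between the groups and did not pass. The ubiquitous chains Col4a1 (4142 ± 455 and 3684 ± 65.4) and Col4a2 (3455 ± 398 and 3118 ± 159) did not pass either. In all 4 of 26 collagen IV, laminin and related genes fell and none rose (15.4%, against 1.25% of all tested genes falling, median -0.15): Col4a5, the linker Nid1 (474 ± 59.99 to 365 ± 27.5), the laminin chain Lama1 (7.73 ± 2.09 to 3.7 ± 0.597) and Pxdn, which cross-links collagen IV (357 ± 40.04 to 285 ± 33.98). None fell without CYM50358 replicate 2 or 3 or vehicle replicate 2, 1 fell without vehicle replicate 1, and 7 without vehicle replicate 3.

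Of 59 tested actin and focal adhesion genes 6 fell and none rose (10.2%, against 1.25% of all tested genes falling, median -0.14), with 48 of the means lower. They were the crosslinker Flna (4057 ± 92.7 to 3145 ± 258), the integrin chains Itgav (482 ± 28.4 to 376 ± 29.4) and Itgb1 (3606 ± 147 to 2901 ± 126), the myosin light chain Myl9, tropomyosin Tpm4 and the small GTPase gene Rnd3. Itgav lost its call without CYM50358 replicate 2 (0.059), and the other 5 without that library and at least 1 more. The count was 0 without CYM50358 replicate 2, 1 without vehicle replicate 2, 2 without CYM50358 replicate 3 and 3 without vehicle replicate 3, and 1 member rose without CYM50358 replicate 1. Of 28 genes of the slit diaphragm and foot process 3 fell (10.7%) and 1 rose (3.57%), and 1 fell without CYM50358 replicate 2 or 3 or vehicle replicate 2. Nes, an intermediate filament gene of podocytes, was 548, 589 and 636 in vehicle and 436, 435 and 423 in CYM50358 libraries, without overlap (log2 fold change -0.45, SE 0.06, adjusted p = 0.00094), and held with each library left out. The other 2 that fell were Itgb1 and Thsd7a, a podocyte surface protein (-0.32, lost without CYM50358 replicate 2 (0.097), CYM50358 replicate 3 (0.11), vehicle replicate 1 (0.11) or vehicle replicate 2 (0.071)). Clic5, a foot process protein, rose (0.63, lost without CYM50358 replicate 2 (0.23), CYM50358 replicate 3 (0.089), vehicle replicate 1 (0.14) or vehicle replicate 2 (0.16)). Inhba, which encodes the activin A subunit, fell (277, 269 and 327 to 211, 195 and 193; log2 fold change -0.54, SE 0.07, adjusted p = 0.00048), also in each fit with a library left out. Tgfb3 fell from 562 ± 41.3 to 449.5 ± 33.98 (-0.32), lost without CYM50358 replicate 2 (0.16), vehicle replicate 1 (0.053) or vehicle replicate 2 (0.11). Of 39 TGF-beta and activin genes 3 fell (7.69%) and none rose, Inhba and Tgfb3 among them, with 6 falling without CYM50358 replicate 1 and 1 without CYM50358 replicate 2 or vehicle replicate 2.

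Transcript length and base composition moved with these results. The median transcript length was 3270 bases over all tested genes, 2332 over genes that rose and 6091 over genes that fell, and the median GC share 49.7%, 53.3% and 45.9%. With genes split into 5 equal groups by length, 10 rose and 108 fell among the longest, and 50 rose and 5 fell among the shortest. A difference of this kind was also seen between libraries of the same group. The correlation across genes of a library's deviation with log length was 0.41, -0.01 and 0.07 in vehicle replicates 1 to 3 and -0.06, -0.15 and -0.50 in the CYM50358 replicates, as a description over 10182 genes that share a library. The median length was 6575 bases in the list of collagen IV and laminins, 3761 in that of actin, 3345 in that of cholesterol synthesis and 2806 in that of hydrolases. With trends in length and GC removed from each library, an alternative chosen after the values were seen, 313 genes were called, 174 higher and 139 lower, and 234 of them were among the 359. Under it 18 of the 26 cholesterol genes, 12 of the 39 hydrolases and 18 of the 43 membrane and autophagy genes rose. Under it 7 oxidation genes, 4 collagen IV and laminin genes and 11 actin genes fell. Among the genes named here, Lpcat3, Thsd7a, Tnfaip3 and Ptx3 lost their calls (adjusted p = 0.10, 0.10, 0.063 and 0.078), as did Aldh1l2 (0.059), Cox8a (0.068), Met (0.12), Amotl1 (0.21), Tead1 (0.11), Erap1 (0.11), Cers6 (0.075) and Fbn1 (0.063). The part of length and base composition in the other results was not tested further.

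**Figure D3:**
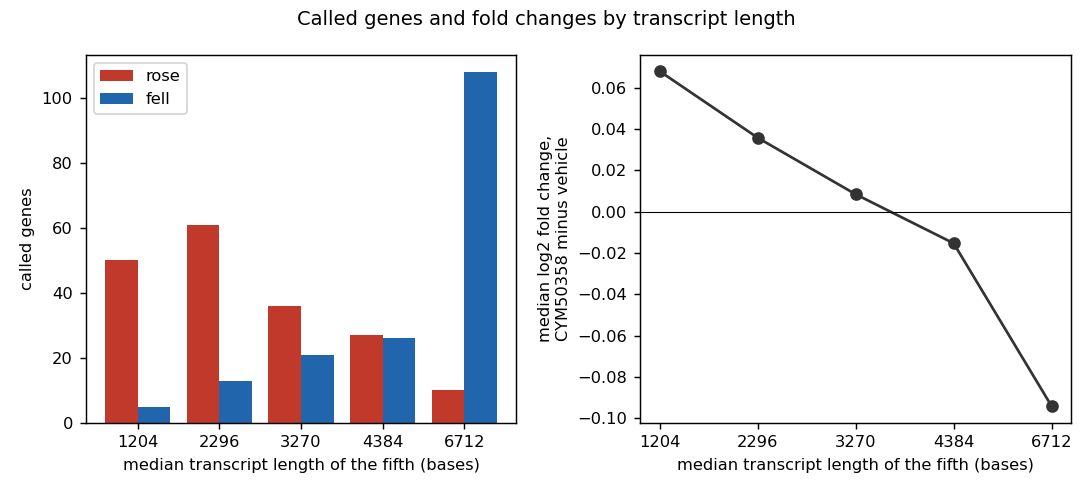
Tested genes in 5 equal groups by transcript length, named on the x axes by the median length in bases. The left panel counts genes that rose (red) and fell (blue) with CYM50358, from 50 and 5 in the shortest group to 10 and 108 in the longest, and the right panel gives the median log2 fold change, from 0.07 to -0.09.

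**Figure D4:**
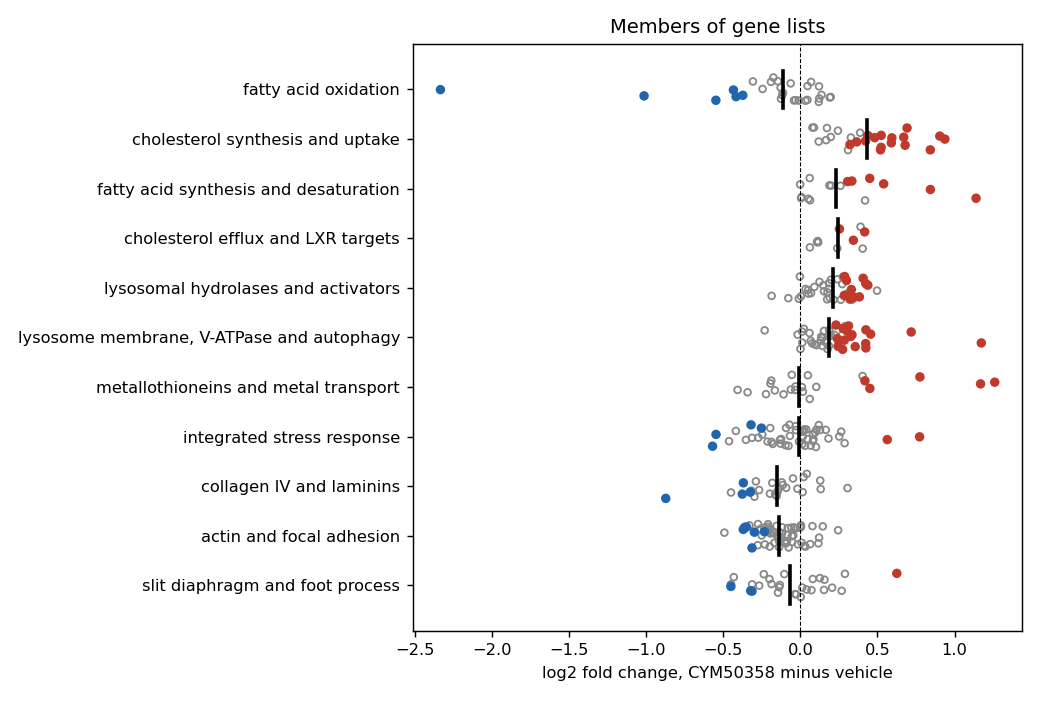
Log2 fold change, CYM50358 minus vehicle, of the tested members of 11 gene lists. Filled points passed limma's threshold (red higher, blue lower), open points did not, thick bars are list medians, the dashed line is the median of all tested genes and the vertical scatter is arbitrary. Cholesterol synthesis has the highest median (0.43), and Angptl4 is the point at -2.33 in the oxidation list.

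Cell division genes did not pass limma's threshold. Of 37 tested genes of the G2 and M phases and 44 of S phase none was called with limma or edgeR, with list medians of -0.05 and -0.10, and Mki67 was 4.47 ± 2.14 and 3.73 ± 0.812. None passed among 35 Wnt genes, 49 cytosolic ribosomal protein genes and 11 genes encoded by mitochondrial DNA, by either tool. The last stood higher in mean for all 11 (median 0.20), as the mitochondrial share of reads did. Of 37 tested genes of glycolysis and hypoxia 1 rose (2.70%, against 1.34% of all tested genes rising), Ndrg1 (0.36, lost without CYM50358 replicate 2 (0.067)). Of 48 nuclear genes of oxidative phosphorylation 1 rose (2.08%, against 1.34%), Cox8a (0.28). Its call was lost without CYM50358 replicate 2 (0.096), CYM50358 replicate 3 (0.058), vehicle replicate 1 (0.081) or vehicle replicate 2 (0.073). Both shares rest on 1 gene.

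The remaining lists held few calls, and the calls of the 13 genes that follow with their values were lost without CYM50358 replicate 2, at adjusted p-values of 0.072 (Adamts14) to 0.15 (Plin3). Of 17 lipid droplet and triglyceride genes 2 rose, the droplet coat gene Plin3 (0.29, adjusted p = 0.046) and the phosphatidate phosphatase Lpin1 (0.29, 0.024). Of 29 ceramide and sphingolipid enzymes 1 rose and 1 fell, the latter the ceramide synthase Cers6 (-0.31, 0.026). Of 33 matrix proteases and inhibitors 3 fell, among them the gelatinase Mmp9 (-0.80, 0.026) and Adamts14, which trims procollagen (-0.62, 0.025). Of 39 interstitial matrix genes 2 fell, Col16a1 (-0.34, 0.023) and the fibrillin Fbn1 (-0.33, 0.035). Of 42 growth factors and receptors 3 fell, Angptl4, the endothelin gene Edn1 (-0.50, 0.034) and the hepatocyte growth factor receptor Met (-0.26, 0.036). Of 25 YAP and TAZ targets 2 fell, Amotl1 (-0.25, 0.048) and Tead1 (-0.29, 0.023), the latter being also the 1 gene that fell among 18 podocyte and nephron transcription factors. Of 19 genes of MHC class I presentation 1 fell (the peptide-trimming Erap1, -0.33, 0.036), and of 35 p53 targets 1 rose (Perp, 0.31, 0.023). The shares called in these lists ran from 2.86% to 11.8% in one direction, against 1.34% of all tested genes rising and 1.25% falling, and rest on 1 to 3 genes each. Single libraries moved the counts both ways. Without CYM50358 replicate 1, 6 interstitial matrix genes, 5 proteases and inhibitors and 5 growth factor genes fell, and 4 p53 targets and 2 growth factor genes rose. Without vehicle replicate 3, 7 interstitial matrix genes fell. No interstitial matrix gene fell without CYM50358 replicate 2 or 3 or vehicle replicate 2, and 1 fell without vehicle replicate 1. Without vehicle replicate 2, 1 protease or inhibitor and 1 growth factor gene fell. No YAP and TAZ target fell without CYM50358 replicate 3 or vehicle replicate 1 or 3, and 1 fell without vehicle replicate 2. No lipid droplet gene rose without vehicle replicate 2 or 3, and 1 rose without CYM50358 replicate 3 or vehicle replicate 1. The 1 p53 target and the sphingolipid, MHC and transcription factor genes were each lost without CYM50358 replicate 3 and vehicle replicate 3 as well.

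Other genes were among the largest changes without belonging to these lists. Bri3, which encodes a membrane protein found on lysosomes, was 25.4, 29.2 and 31.1 in vehicle and 54.7, 56.4 and 54.4 in CYM50358 libraries (log2 fold change 0.93, SE 0.09, adjusted p = 7.5e-06). All 3 treated libraries lay well above the vehicle libraries. Uap1l1 rose from 34.5 ± 2.96 to 64.4 ± 7.14 (0.88), Lgals3, which encodes the galectin that gathers on damaged lysosomes, from 38.8 ± 8.77 to 64.1 ± 8.48 (0.72), and Pdzk1ip1 from 21.1 ± 2.32 to 34.4 ± 0.554 (0.68). Xdh, of purine breakdown, rose from 27.5 ± 4.74 to 44.03 ± 6.41 (log2 fold change 0.66, SE 0.12, adjusted p = 0.0044), lost without CYM50358 replicate 2 (0.057). Among the falls were the actin regulator Kank3 (41.4 ± 5.55 to 27.5 ± 3.8, -0.57), the transcription factor Klf11 (29.6 ± 0.9997 to 19.7 ± 0.716, -0.56), the tubulin Tubb3 (81.2 ± 11.8 to 55.3 ± 2.68, -0.54), the bicarbonate transporter Slc4a7 (-0.51), the actin-severing Scin (-0.50), the phosphatase Ptprz1 (-0.49) and the adhesion gene Lpp (-0.49). All of these but Xdh held with every library left out. Ndnf, which encodes a secreted factor of neurons and vessels, had a low signal of 16.7, 13.6 and 11.5 in vehicle and 6.52, 4.11 and 5.1 in CYM50358 libraries (log2 fold change -1.26, SE 0.17, adjusted p = 0.00048), and held with every library left out. Hipk2 (-0.53) and the chloride transporter Clcn5 (-0.51) fell as well. Hipk2 lost its call without CYM50358 replicate 2 (0.074), CYM50358 replicate 3 (0.070), vehicle replicate 1 (0.10) or vehicle replicate 2 (0.067), and Clcn5 without CYM50358 replicate 2 (0.10), CYM50358 replicate 3 (0.061) or vehicle replicate 1 (0.083).

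CYM50358 was also compared with ApoM, the other treatment of the same knockout cells, in a test without the vehicle libraries. Of 13878 tested genes 360 differed (2.59%), 190 higher (1.37%) and 170 lower (1.22%) with CYM50358. With replicate number as a block, a pairing that these data do not establish, 1174 differed, 503 higher and 671 lower. Once length and GC trends were also removed, 680 differed, 385 higher and 295 lower. The values that follow are from the fit without the block unless stated. Without single libraries the unblocked count was 130 (ApoM replicate 1), 141 (ApoM replicate 2), 144 (CYM50358 replicate 2) and 542 (CYM50358 replicate 1), and within 1.5 times of 360 for the other 2. This test shares the CYM50358 libraries with the test against vehicle, so the values are set side by side and are not independent. Of the 359 genes called against vehicle, 184 passed the threshold against ApoM too, and 0 passed with the sign reversed. The rest did not pass against ApoM. Among them were Scin (-0.20, adjusted p = 0.30), Ddit3 (0.22, 0.27), Myl9 (-0.13, 0.36) and Adamts14 (-0.03, 0.94). A missing call does not show equal levels. Angptl4 was 58.3, 52.4 and 60.7 after ApoM and 10.1, 8.98 and 10.3 after CYM50358 (log2 difference -2.43, limma adjusted p = 5.0e-13). Pdk4 differed by -1.13 and Cpt1a by -0.59.

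Sterol and desaturase genes stood higher with CYM50358 than with ApoM. Scd1 was 87.9, 79.4 and 93.1 after ApoM and differed by 1.64 (adjusted p = 4.3e-10), beside 1.14 relative to vehicle. Fdps was 61.7, 56.4 and 71.01 after ApoM and differed by 1.23. Of the 26 cholesterol genes 22 were higher with CYM50358 than with ApoM (25 with the block) and none lower (median 0.70), including Srebf2 (0.32, adjusted p = 0.0095), which did not pass against vehicle. Of the hydrolases 13 of 39 were higher (18 with the block) and of the membrane and autophagy genes 13 of 43 (20 with the block). Mt1 (42.6, 47.4 and 46.7 after ApoM) differed by 0.70 and Mt2 by 0.75. Of the integrated stress genes 1 was higher and 14 were lower with CYM50358 (24 lower with the block, median -0.16), among them Asns, which makes asparagine (-0.45, adjusted p = 0.00052). Over all 13878 tested genes the block also raised the calls, from 190 (1.37%) to 503 higher and from 170 (1.22%) to 671 lower. The blocked list counts stand beside that general rise. Col4a3 and Col4a4 were lower with CYM50358 than with ApoM (-0.51 and -0.53, adjusted p = 0.012 and 0.00024). Bri3, at 32.8, 37.2 and 52.9 after ApoM, differed by 0.45, with ApoM replicate 3 close to the CYM50358 libraries. S1pr2 did not differ past the threshold (-0.15, adjusted p = 0.51, and 0.36 with the block).

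The genotype difference was read from separate libraries, knockout against wild type, each with vehicle, in a table normalized apart from that of the treatments. There 6395 of 14313 tested genes were called (44.7%), 3239 higher (22.6%) and 3156 lower (22%) in knockout cells. Of the 357 genes called for CYM50358 and tested in both, 193 were also called between the genotypes, which is 54.1% of the former and 3.25% of the 5942 genotype calls among shared genes. In direction they split: for 90 CYM50358 moved the gene opposite to the genotype difference and for 103 along with it. Over all genes tested in both, 48.0% had opposite signs. Those that rose with CYM50358 and were low in knockout cells numbered 39, and those that fell and were high 51. Another 67 rose and were high, and 36 fell and were low. With edgeR calls in both comparisons the counts were 71 opposite and 78 along.

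Opposite to the genotype difference were Cpt1a (103 ± 6.83 in wild-type and 186 ± 17.9 in knockout cells, 0.84), Inhba (0.92), Psat1 (0.61), Klf11 (0.98), Kank3 (0.93) and Col4a5 (0.30), which were higher in knockout cells and fell with CYM50358, and Pdzk1ip1 (64.7 ± 3.77 and 27.5 ± 3.84, -1.21), which was lower and rose. Along with it went Scd1 (67.7 ± 9.2 and 102 ± 2.58, 0.60), Scd2 (0.71), Lss (0.55), Insig1 (0.85), Uap1l1 (0.98), Bri3 (0.31) and Ifit3 (0.75), all higher in knockout cells and higher again with CYM50358, and Ucp2 (108 ± 6.99 and 23.6 ± 3.75, -2.15), lower in both. Of the 26 cholesterol genes 12 were higher and 1 lower in knockout cells, against 22.6% and 22% of all tested genes. Other genes that CYM50358 changed did not pass between the genotypes. Angptl4 was 11.5 ± 2.75 and 14.4 ± 1.52 (adjusted p = 0.13), Pdk4 37.3 ± 12.4 and 38.98 ± 3.19 (adjusted p = 0.68) and Mt1 9.53 ± 1.64 and 10.9 ± 1.06 (adjusted p = 0.27). The vehicle libraries compared with CYM50358 stood higher for these genes, at means of 53.4, 104.5 and 32.7, and for Ucp2, at 69.8. For Scd2 the knockout means of the genotype and treatment libraries were close (935.5 and 973.1), and for Col4a3 they were 68.3 and 19.8. Whether the genotype difference holds for the knockout cells that were treated was not tested.

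**Figure D5:**
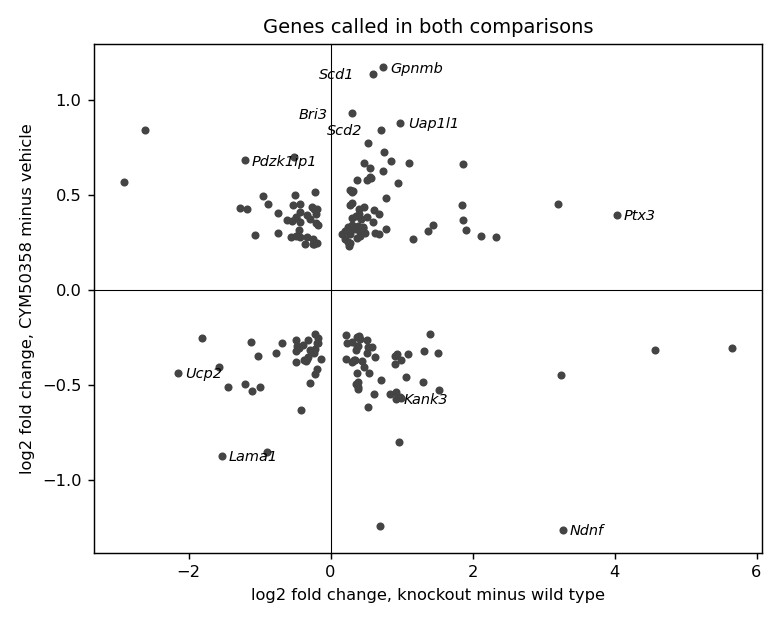
The 193 genes called both for CYM50358 against vehicle (y axis, log2 fold change) and for knockout against wild type (x axis, log2 fold change, separate libraries). Points in the upper left and lower right (90) moved opposite to the genotype difference and those in the other corners (103) along with it. Named points are examples.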

How the data were processed

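Polyadenylated RNA of mouse podocyte cultures was sequenced after a Universal Plus mRNA-Seq kit, per the labels' protocols. The submitters' processing notes name FastQC, Trim Galore, STAR, edgeR and the build mm39, with order, settings and use of strand not given in the sources used here. The deposited signal columns are the authors' per-library values, reads per gene scaled per library to near-equal totals, and the file headers state no unit. Whole reads were recovered from these deposited values, at a tolerance of 0.01, for 100% of them in the 9 treatment libraries and at least 99.991% in the 6 genotype libraries. The authors' own log2 fold changes, test scores and deposited p-values were used only for 1 count.

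Signal was tested as log2(signal + 1) with limma 3.58.1 (trend, R 4.3.3) keeping genes that reached a signal of 0.5 in 3 libraries, with Benjamini-Hochberg adjustment over all tested genes and a threshold of 0.05. Fold changes on this scale understate the change of low genes. The main test was fitted on the 6 libraries of the 2 groups. The alternatives were edgeR 4.0.16 and DESeq2 1.42.0 on recovered reads, other pseudocounts and filters, TMM scaling, a replicate block and leaving out each library. Reads thinned to equal depth and removal of length and GC trends were added after the values were seen. The design had foreseen either counts or scaled values, and the scaled values were taken as the main unit. The limma test was run on simulated counts of independent genes, with changes larger than most called here and no trend with length. That check does not cover small changes or such trends.

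Same-numbered ApoM and CYM50358 libraries had correlations of 0.14, 0.12 and 0.13 across genes, and differently numbered ones -0.10 to -0.02. Same-numbered vehicle and CYM50358 libraries stood at 0.09, -0.16 and -0.03. Differently numbered vehicle and CYM50358 libraries, which cannot be pairs, ran from -0.14 to 0.17. Values of this size therefore do not establish pairing, and the block is given only as an alternative. Replicates of a group differed by more than sampling noise, with chi-square per degree of freedom of 14.8 to 26.0.

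The comparison, its gene lists and the rule for named genes were chosen with earlier results of these data known. Named genes were the receptors of sphingosine-1-phosphate, Apom, Col4a3 to Col4a5, the 15 strongest upward and 15 strongest downward calls of above-median level without overlap between groups, up to 4 called members of each list with at least 3, and the 5 largest changes opposite to and along the genotype difference. Other genes were named, after their values were seen, as members of a list with few calls or as known members of a pathway. Promoter sequences are from RefSeq (GRCm38.p6) and were matched by symbol for 10017 of the tested genes, while gene coordinates are those of the files (mm39). Intervals and floors cover counting error only. Some genes of these lists are not reported here by name.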

Additional observations from a re-analysis of the deposited data

How the results depend on the processing

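The count of 359 genes for CYM50358 against vehicle was 763 with DESeq2 and 596 with 9 libraries in 1 fit, 1 with no filter on low signal and 83 at a log2 fold change of at least 0.5, and it ranged from 78 to 474 with 1 library left out. Under edgeR, TMM scaling, both pseudocounts, the minimum signal of 5, thinning to equal depth and removal of length and GC trends it stayed within 1.5 times, at 264 to 391. With replicate number as a block it was 532. Same-numbered vehicle and CYM50358 libraries did not deviate together (correlations 0.09, -0.16 and -0.03). The titles share replicate numbers, but these numbers and correlations do not establish a pairing. Against ApoM the 360 genes became 639 with DESeq2, 6 with no filter, 1174 with the replicate block and 680 with the block and length and GC trends removed, and ranged from 130 to 542 with 1 library left out. The 6395 genotype calls stayed within 1.5 times (4833 to 7048). The cause of these shifts was not tested. Without a filter 24771 genes entered the test against vehicle, in place of 13877. How these added rows removed the calls was not tested either. No named gene changed direction. Of 75 called named genes 35 lost their call without CYM50358 replicate 2, 19 without CYM50358 replicate 3, 21, 15 and 13 without vehicle replicates 2, 3 and 1, and 74 without a filter. By edgeR 6 missed the threshold: Lpcat3, Clic5, Pxdn, Met, Ptx3 and Ifit2 (adjusted p = 0.050 to 0.070). Genes with a signal near 1, such as S1pr1, are limited by depth.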
